A study of Mus musculus with 29 samples.

Results

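The 10 genes described here mark fat cells and were followed through tibialis anterior (TA) muscle of ageing mice. They were Adipoq, Lep, Retn, Cfd, Plin1, Plin4, Cidec, Fabp4, Lpl and Pparg, chosen by symbol from the 22537 gene symbols of the count table, and all 10 were found in it. Poly-A RNA of the whole TA, a fast muscle of the lower hindlimb, had been sequenced from male C57BL/6 mice without genetic change or treatment, 7 aged 6 months (6m), 7 aged 24 months (24m) and 8 labelled 28 months or older (28m). The mice came from the ageing colony of the National Institute on Aging, and each was a separate animal. RNA of each 6m mouse was used for a library in both, beside the 24m group in run 1 and the 28m group in run 2, which gave 29 libraries from 22 mice. The question was how the levels of these genes differed with age, and whether they differed together. Each older group was therefore compared with the 6m libraries sequenced alongside it.

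White adipocytes store triglyceride in a single large lipid droplet and release hormones into the blood. The nuclear receptor PPARγ, encoded by Pparg, drives their differentiation together with C/EBP factors and switches on many genes of lipid storage. Adipocytes occur between the fibres of skeletal muscle and around its fascia, where they can arise from fibro-adipogenic progenitors. Several of these genes are not restricted to adipocytes, since muscle fibres also make lipoprotein lipase and perilipin 4 and capillary endothelial cells also make FABP4. In RNA of a whole muscle, fewer cells of a type and less RNA per cell cannot be told apart.

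All 10 genes were measured in every group, but at very different levels. Divided by transcript length, the mean level in the 6m libraries of the second run was 168 ± 6.26 CPM per kb for Fabp4 and 121 ± 16.0 for Lpl (SD, n = 7, CPM being counts scaled to library size with the trimmed mean of M values). Plin4 followed with 32.5 ± 9.82 CPM per kb and Cfd with 23.4 ± 9.38, a pair that did not differ beyond their spread. Adipoq stood at 3.37 ± 1.32 CPM per kb. The remaining 5 genes were lower, with Cidec at 1.73 ± 0.733, Pparg at 1.68 ± 0.373, Plin1 at 1.16 ± 0.581, Retn at 1.01 ± 0.489 and Lep at 0.282 ± 0.155 CPM per kb. Within that group only Lep stood apart from its nearest neighbour by more than the SD of either. At 28m the level of Retn was 3.11 ± 2.90 CPM per kb (n = 8), which placed it above Pparg and Plin1, though the spread of Retn covered both. Single counts ran from 2 reads for Lep in 24m replicate 6 to 22911 reads for Lpl in 24m replicate 4, so that values of Lep, Retn, Plin1, Cidec and Pparg carried more counting error than those of Fabp4, Lpl and Plin4.

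The promoters of the 4 genes for secreted proteins are shown because these genes, apart from Lep, gave the larger differences described further on. Each line holds the 250 bases before the RefSeq transcription start on GRCm38.p6, read 5′ to 3′ on the strand of the gene, with a C/EBP motif (letters TTGCNNAA, either strand) in capitals. Adipoq is shown from chr16:23146286-23146535 and Cfd from chr10:79890603-79890852. Retn is shown from chr8:3655520-3655769 and Lep from chr6:29059971-29060220, and all 4 lie on the + strand.
Adipoq: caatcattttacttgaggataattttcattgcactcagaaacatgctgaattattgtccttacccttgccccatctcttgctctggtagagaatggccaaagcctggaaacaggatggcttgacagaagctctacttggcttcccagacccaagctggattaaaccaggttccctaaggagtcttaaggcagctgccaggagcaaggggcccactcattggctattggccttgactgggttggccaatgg
Cfd: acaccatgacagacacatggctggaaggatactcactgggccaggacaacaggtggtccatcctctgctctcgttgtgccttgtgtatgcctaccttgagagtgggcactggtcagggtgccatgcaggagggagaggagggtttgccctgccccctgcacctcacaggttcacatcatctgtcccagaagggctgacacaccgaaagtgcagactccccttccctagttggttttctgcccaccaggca
Retn: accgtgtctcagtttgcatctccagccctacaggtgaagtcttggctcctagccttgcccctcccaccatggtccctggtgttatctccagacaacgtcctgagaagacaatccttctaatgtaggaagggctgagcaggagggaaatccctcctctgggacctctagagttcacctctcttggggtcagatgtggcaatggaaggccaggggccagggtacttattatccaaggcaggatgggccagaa
Lep: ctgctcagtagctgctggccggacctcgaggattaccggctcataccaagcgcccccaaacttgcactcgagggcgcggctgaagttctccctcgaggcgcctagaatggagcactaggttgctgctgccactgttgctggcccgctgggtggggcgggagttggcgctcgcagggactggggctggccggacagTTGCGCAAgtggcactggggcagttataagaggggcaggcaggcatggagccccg

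The set of RefSeq promoter windows used here held 11 windows for 8 of the 10 genes, 3 of them for Pparg and 2 for Cidec. That set held no window for Fabp4 and Lpl. The C/EBP motif was found in windows of 4 genes, Lep, Plin1, Cidec and Pparg, and in 9.57% of the 32841 windows of all genes. In Lep it began 55 bases before the start, and in Plin1 it occurred at 187 and at 58 bases. The nuclear receptor hexamer AGGTCA, on either strand, was found only in windows of Pparg among these genes, against 14.0% of all windows. A direct repeat of that hexamer with 1 base between its copies, the arrangement bound by PPARγ with RXR, was present in 0.0335% of all windows and in none of the 11. The letters TATAAA, on either strand, occurred in 1 window of Pparg and in 12.4% of all windows. These are matches of letters in short windows, and no binding was measured.

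Libraries held 17633475 to 33499162 counts (median 24250878). The library of 24m replicate 4 stood apart for several of the genes, and the first-run library of 6m replicate 4 differed from the second library of the same mouse. Results that rest on them are given with and without them where both fits were run. Muscle fibre genes made up between 110850 and 179230 CPM as the sum of 8 markers, whereas the sum of the 10 adipocyte genes was between 576 and 1397 CPM. Most of the latter sum came from Lpl, Plin4 and Fabp4, with means of 497, 187 and 151 CPM in the 6m libraries of the second run. Other cells of muscle also make these 3, so the sum is not a level of adipocyte RNA. Among the other cell type markers, 5 of 6 endothelial genes fell at 28m and none rose, with a summed level of 187 to 297 CPM against 374 to 412 CPM at 6m. Of 7 markers of fibro-adipogenic progenitors, 3 fell and 1 rose, where 22.9% of all genes tested fell and 24.3% rose. Whether these shifts had a part in the values of Fabp4, Lpl or other genes was not tested.

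At 28m, 3 of the 10 adipocyte genes rose and none fell when edgeR's quasi-likelihood test was run on 12994 genes with a Benjamini-Hochberg threshold of 0.05. Those were Retn (resistin), Fabp4 (a fatty acid carrier) and Pparg. The background of this comparison was high, with 47.3% of all genes tested called in either direction 24.3% as higher and 22.9% as lower. An unadjusted p under 0.05 was reached by 4 of the genes, and by 54.8% of all genes. The median log2fc of the 10 was 0.66, against 0.0091 over all genes tested. All 10 genes had passed the filter on low counts. In none did all 28m mice lie above or below all 6m mice, a separation that 12.3% of all genes showed.

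Adipoq, which encodes the hormone adiponectin, was very uneven between mice at 28m. Its level in the 8 mice had a lowest value of 1.01 CPM, a median of 9.45 CPM and a highest of 21.8 CPM. In the 7 mice at 6m these values were 2.03, 4.51 and 7.08 CPM. The 28m replicates 7, 2, 5, 1 and 3 lay above every 6m mouse, with values from 8.72 CPM upward, and replicates 4, 8 and 6 had 2.08 CPM or less, replicates 8 and 6 below every 6m mouse. The mean was 9.24 ± 7.53 CPM (SD, n = 8) at 28m and 4.35 ± 1.71 CPM (n = 7) at 6m. The log2fc of 1.09 ± 0.53 (SE) did not pass the test (adjusted p = 0.0974), nor was it passed in any of 9 other settings (adjusted p from 0.0674 to 0.486, with a log2fc of 0.54 by limma-voom). It was passed in 3 of 15 fits that left out a mouse, those without replicate 4, 6 or 8, the mice with the lowest values.

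Cfd encodes complement factor D, or adipsin, a serine protease of the alternative complement pathway that fat secretes in large amounts. It ranged from 6.99 to 127 CPM at 28m with a median of 50.8 CPM, and from 8.403 to 32.0 CPM at 6m with a median of 21.7 CPM. Its 28m mice stood in exactly the order of Adipoq, and the same 5 mice lay above all 6m mice. The log2fc of Cfd was 1.33 ± 0.54 with an adjusted p of 0.0525, which missed the threshold. It passed in 4 of 9 other processing settings, DESeq2 among them, with adjusted p values between 0.0405 and 0.273, and also without 28m replicate 4, 6 or 8.

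Retn encodes resistin, a small hormone that mouse adipocytes secrete. At 28m it had a lowest value of 0.421 CPM, a median of 2.68 CPM and a highest of 9.29 CPM, and at 6m these were 0.547, 1.07 and 2.19 CPM. The 28m replicates 7, 2, 1 and 5 lay above every 6m mouse and replicate 6 lay below all of them. Retn had the largest log2fc of the 10 genes, 1.63 ± 0.58 (adjusted p = 0.0297), or 3.09-fold. Without single mice the log2fc stayed between 1.24 and 1.87 and the test was passed in 10 of 15 fits, with adjusted p values up to 0.0736. It was not passed without 6m replicate 1, 4 or 7 or without 28m replicate 2 or 7. Limma-voom did not call Retn either, with a log2fc of 1.07 ± 0.67 (adjusted p = 0.197).

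Lep, the gene of the satiety hormone leptin, showed no such rise. Its 28m mice ranged from 0.166 to 3.16 CPM with a median of 1.02 CPM, and the 6m mice from 0.342 to 1.64 CPM with a median of 0.773 CPM. Of the 28m mice, 3 lay above and 2 below all 6m mice, so that the 28m range enclosed the 6m range. The log2fc was 0.38 ± 0.54 (adjusted p = 0.572), with a 95% interval from -0.67 to 1.44 that allowed a change in either direction. The library counts behind these values were between 4 and 85 reads at 28m.

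The 3 lipid droplet genes did not pass the test. Cidec encodes a protein that fuses droplets into larger ones, and it ranged from 0.884 to 13.2 CPM at 28m with a median of 4.98 CPM. At 6m it ranged from 1.45 to 4.85 CPM with a median of 2.73 CPM. The 28m replicates 7, 2, 1 and 5 lay above all 6m mice and 2 lay below, and the log2fc was 0.93 ± 0.50 (adjusted p = 0.130). By limma-voom it was 0.50 ± 0.56, and without single mice it lay between 0.62 and 1.09.

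Plin1 encodes perilipin 1, the coat protein of the adipocyte droplet that controls access of lipases. It ranged from 0.631 to 6.32 CPM at 28m (median 3.42 CPM) and from 1.74 to 6.65 CPM at 6m (median 3.19 CPM). No 28m mouse lay above all 6m mice, and the log2fc was 0.07 ± 0.39 (adjusted p = 0.898, 95% interval -0.69 to 0.82). Plin4, which encodes perilipin 4, a coat protein of small droplets, ranged from 87.4 to 258 CPM at 28m (median 202 CPM) and from 116 to 278 CPM at 6m (median 164 CPM). Its groups overlapped widely, with a log2fc of -0.04 ± 0.24 (adjusted p = 0.904, 95% interval -0.50 to 0.42). In the annotation used here, Plin4 overlaps Hdgfl2 on the other strand. The strand setting of the counting is not stated, so how reads in the overlap were counted is not known.

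Fabp4 encodes the cytosolic fatty acid binding protein of adipocytes and capillary endothelium. The 6m mice of the second run were closely alike, between 141 and 156 CPM with a median of 154 CPM, and by the SD of log2 CPM between those mice Fabp4 ranked 12355 of 12942 genes from the most to the least variable. At 28m the lowest value was 138 CPM, the median 252 CPM and the highest 423 CPM. The 28m replicates 7, 5, 3, 1 and 2 had 231 CPM or more, replicate 4 was barely above the 6m range, replicate 8 within it and replicate 6 below. Fabp4 rose with a log2fc of 0.76 ± 0.22 (adjusted p = 0.0106), and the test was passed in all 15 fits that left out single mice and in 7 of 9 other settings. It was not passed with the length and GC trend removed (log2fc 0.03) or with the first-run 6m libraries (0.56). The latter fit included the first-run library of 6m replicate 4 and was not run without it.

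Lpl encodes lipoprotein lipase, which frees fatty acids from triglyceride of the blood. It ranged from 380 to 605 CPM at 28m (median 476 CPM) and from 403 to 594 CPM at 6m (median 501 CPM). The groups overlapped almost fully, and the log2fc of -0.03 ± 0.12 had the narrowest interval of the 10 genes, -0.27 to 0.21 (adjusted p = 0.850). Lpl was thus measured with enough precision that a change of 1 on the log2 scale lay outside its interval.

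Pparg ranged from 2.81 to 6.93 CPM at 28m (median 4.21 CPM) and from 2.33 to 4.10 CPM at 6m (median 2.69 CPM). Of the 28m mice, replicates 7, 2, 3 and 1 lay above all 6m mice and none lay below. It rose with a log2fc of 0.55 ± 0.20 (adjusted p = 0.0304), and the call was kept in 9 of 15 fits without single mice, with adjusted p values up to 0.0628. It was lost without 6m replicate 1, 3, 4 or 5 or without 28m replicate 2 or 7. An antisense gene, Gm44079, overlaps Pparg in the annotation used here, and how reads in that overlap were counted is not known either.

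**Figure D1:**
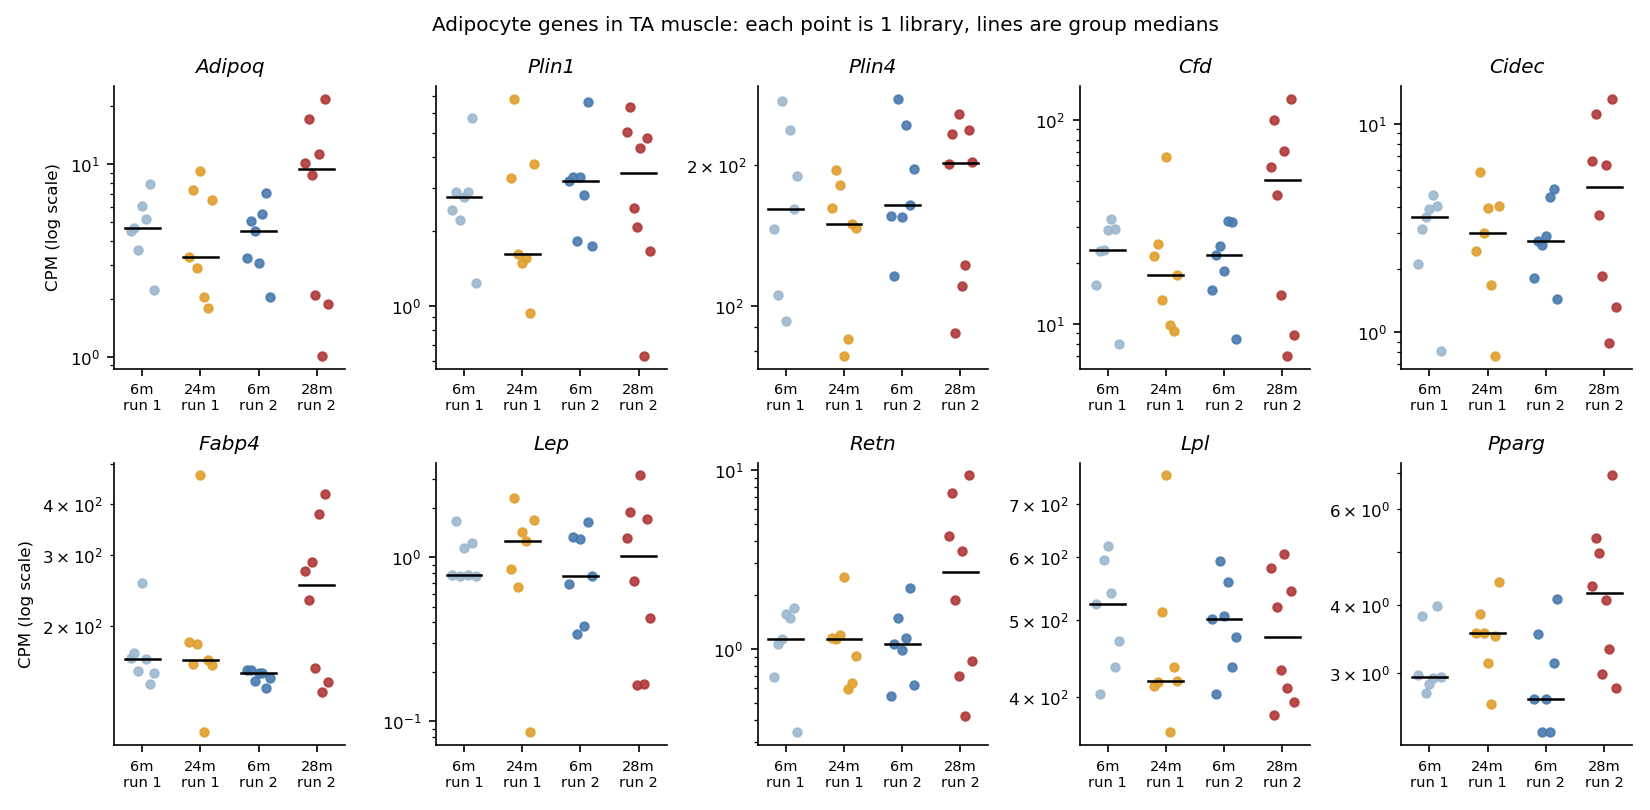
CPM (log scale) of each of the 10 genes in the 29 libraries, with 1 point per library, a line at the group median, and the 4 groups of age and run on the horizontal axis. At 28m the points of Adipoq and Cfd reach above and below those of both 6m groups, from 1.01 to 21.8 CPM for Adipoq, and those of Retn and Cidec reach above them, while those of Lpl and Plin4 cover about the same range at each age.

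The 6 genes with the larger log2fc were those with the shorter transcripts. Fabp4, Cfd, Retn, Adipoq, Cidec and Pparg have transcripts of 896 to 1767 bases and had log2fc values of 0.55 to 1.63. Plin1, Lep, Lpl and Plin4 have transcripts of 2817 to 5756 bases and had log2fc values of -0.04 to 0.38. The same order ran through the whole comparison, since the log2fc at 28m fell with transcript length across 12875 genes (Spearman's rho = -0.63, a description, because genes are not independent replicates and share their libraries). The median length of those genes was 3052 bases, so that 7 of the 10 adipocyte genes lay below it.

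Removing a trend with length and GC content from each library lowered the estimates of the short genes. Fabp4 went from 0.76 to 0.03 (adjusted p = 0.865), Pparg to 0.21 (adjusted p = 0.319) and Retn to 1.06 (adjusted p = 0.132). None of the 10 genes then passed, while 2275 genes were still called higher and 1653 lower among all genes. Cfd stood at 0.72 ± 0.47, Cidec at 0.65 ± 0.46 and Adipoq at 0.55 ± 0.47 in that fit, and Plin4 turned from -0.04 to 0.42 ± 0.23 without passing the test (adjusted p = 0.180). Whether the trend with length was biological or technical was not tested.

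**Figure D2:**
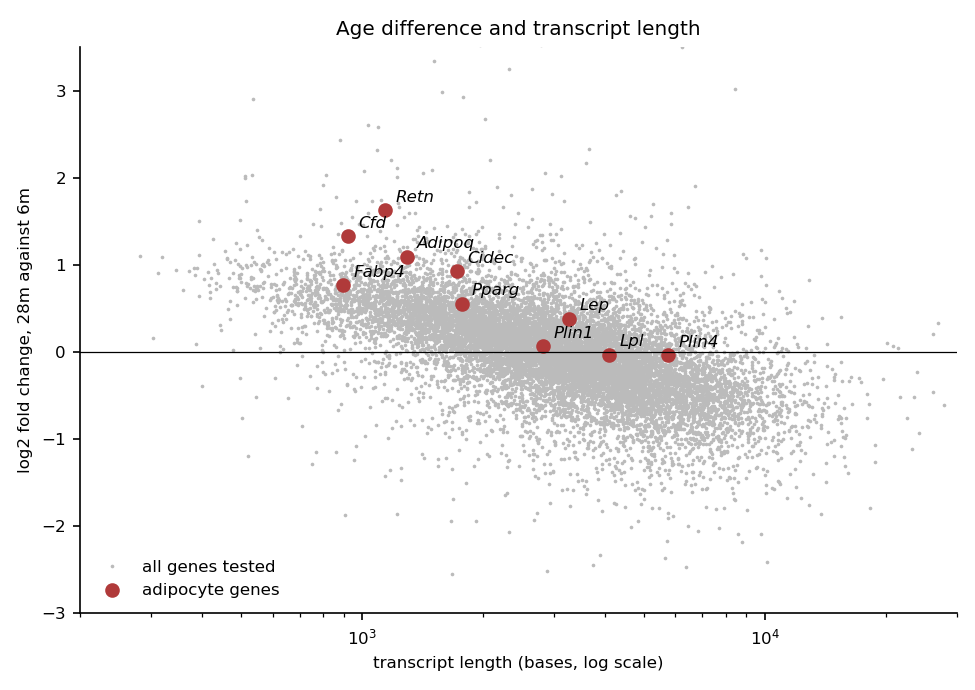
Log2 fold change at 28m against 6m (vertical axis) and transcript length in bases (log scale, horizontal axis), with all genes that had a length in grey and the 10 adipocyte genes in red. The grey cloud slopes downward (rho -0.63), and the short adipocyte genes from Fabp4 to Pparg lie on its left at 0.55 to 1.63.

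At 24m none of the 10 genes passed the same test over 13103 genes, where 0.084% of all genes were called, and none had an unadjusted p under 0.05, against 1546 of all genes. DESeq2 and limma-voom also called none of the 10, where DESeq2 called 169 genes higher and 47 lower of 14995 and limma-voom 8 higher and 4 lower of 13103. The log2fc values were between -0.27 and 0.25 with a median of 0.013, against 0.028 over all genes. Adjusted p values were between 0.642 and 0.992. In none did all 24m mice lie above or below all 6m mice, against 0.595% of all genes.

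Among the secreted proteins, Adipoq ranged from 1.80 to 9.20 CPM at 24m (median 3.29 CPM) and from 2.22 to 7.89 CPM at 6m (median 4.64 CPM). Cfd ranged from 9.28 to 66.1 CPM with a median of 17.4 CPM, against 8.00 to 32.7 CPM at 6m. The groups overlapped in both genes, and only 24m replicate 4 lay above the 6m mice for Cfd. Without that mouse the log2fc of Cfd went from 0.03 to -0.51, and that of Fabp4 from 0.25 to -0.11 (adjusted p = 0.760). Retn went from 0.06 to -0.26 (adjusted p = 0.744) and Lpl from -0.10 to -0.26 ± 0.11 (adjusted p = 0.361), and Lpl was then under 0.05 unadjusted. Without 6m replicate 4, Fabp4 stood at 0.37 ± 0.27 (adjusted p = 0.481), Plin4 at -0.38 ± 0.25 (adjusted p = 0.441), and the other 8 genes between -0.05 and 0.25.

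Fabp4 ranged from 110 to 470 CPM at 24m with a median of 165 CPM, where 24m replicate 4 held the highest value and the next was 183 CPM. The other 24m mice lay within the 6m range of 144 to 256 CPM, except replicate 5 at 110 CPM. Pparg ranged from 2.63 to 4.41 CPM at 24m (median 3.56 CPM) and from 2.76 to 3.99 CPM at 6m (median 2.95 CPM). Its log2fc of 0.15 ± 0.14 had a 95% interval of -0.12 to 0.42.

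The difference between the age effects at 28m and at 24m was tested in a model of all 29 libraries. It had no term for the mouse, so both libraries of a 6m mouse entered as separate samples. All 10 estimates were positive, between 0.09 for Lpl and 1.59 ± 0.73 for Retn, where 46.1% of all genes had a positive one. The 2 effects do not share their 6m libraries, only their 6m mice. None of the 10 passed over 13455 genes (edgeR with Benjamini-Hochberg adjustment, lowest adjusted p = 0.409 for Retn), and 0% of all genes did. At an unadjusted p under 0.05, 1 of the 10 was counted, which was Retn, and 1611 of all genes. In limma-voom with the mouse as a block, Retn stood at 1.02 ± 0.64 (adjusted p = 0.327), and without the block at 1.01 ± 0.84. None of the 10 passed with the block. Without 24m replicate 4, 1204 of all genes were higher and 453 lower, and Fabp4 passed with a difference of 0.91 ± 0.29 (adjusted p = 0.0427). A rise of the adipocyte genes at 28m that was larger than at 24m was therefore not shown for the full set of mice.

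**Figure D3:**
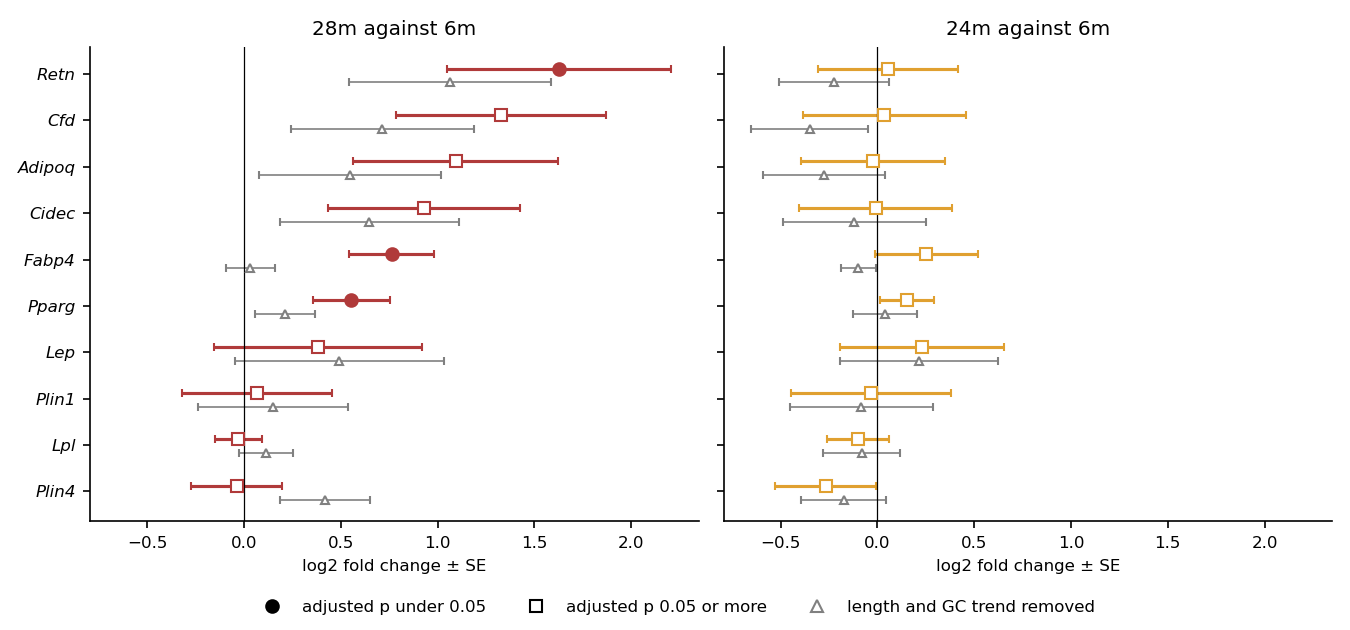
Log2 fold change of each gene at 28m (left) and 24m (right) against the 6m libraries of the same run, with bars of 1 SE, filled circles where the adjusted p was under 0.05 and grey triangles for the fit with the length and GC trend removed. At 28m Retn, Fabp4 and Pparg are filled. At 24m all values of the main fit lie between -0.27 and 0.25, and the triangles reach down to -0.35 for Cfd.

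The spread between mice was wide for the adipocyte genes at 28m. The SD of log2 CPM (prior count 2) among the 8 mice was 1.62 for Adipoq and 1.62 for Cfd, 1.57 for Retn, 1.41 for Cidec, 1.40 for Lep and 1.05 for Plin1. Over all genes the median SD at 28m was 0.34, and Cfd and Adipoq ranked 27 and 28 of 12942 genes. Fabp4 (0.62), Plin4 (0.59) and Pparg (0.44) lay above that median, with ranks of 1571, 1812 and 3998, and Lpl (0.27) lay below it, with a rank of 8639. In the 6m libraries of the second run, Lep, Cfd, Retn, Plin1, Cidec and Adipoq ranked 155, 326, 411, 424, 464 and 506, so a high rank was not particular to 28m. These ranks are not corrected for level, and genes with few counts vary more.

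The median SD over all genes was also lower at 6m, 0.14 in the second run, so the spread was wider at 28m over all genes as well. Against the 6m mice of the same run, the mean deviation from the group median was larger at 28m for all 10 genes, by 0.80 for Adipoq and by 0.86 for Retn on the log2 scale. The exact permutation test, two-sided, gave adjusted p values of 0.0715 for Fabp4, 0.151 for Retn and 0.212 for Cidec over 20 tests, and none of the 10 genes passed at 28m or 24m. Unadjusted, Fabp4 (exact p = 0.00357), Retn (exact p = 0.0151) and Cidec (exact p = 0.0319) were under 0.05. For Fabp4 the deviation was 0.04 at 6m and 0.51 at 28m.

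Several of the genes rose and fell together from mouse to mouse within an age. At 6m, with the mean of both libraries of a mouse, log2 CPM of Cidec (Pearson's r = 0.922, rho = 0.857), Cfd (r = 0.918, rho = 0.821), Plin1 (r = 0.917, rho = 0.857) and Retn (r = 0.894, rho = 0.857) was correlated with that of Adipoq over 7 mice. The exact permutation test gave adjusted p values of 0.0214 for Cidec, Cfd and Retn and of 0.0452 for Plin1 over 18 relations. By Spearman's rho the adjusted p values were 0.0857 for Cidec, Plin1 and Retn and 0.102 for Cfd by the same exact test. Without the 2 mice farthest from the median of Adipoq, r was 0.794 for Cidec and 0.810 for Cfd, but 0.546 for Retn and 0.447 for Plin1, so that the relation of Plin1 and Retn rested largely on those 2 mice.

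At 24m, Cidec (r = 0.874, rho = 0.857) and Cfd (r = 0.861, rho = 0.964) were correlated with Adipoq over 7 mice, both with an adjusted p of 0.0214 by the exact permutation test, and r was 0.862 and 0.754 without the 2 farthest mice. By rho neither passed at 24m, with adjusted p values of 0.0857 for Cidec and 0.050 for Cfd by the same exact test, and leaving out 6m replicate 1 or 7 left none of the 6 relations past the threshold. Plin1, Retn and Lep had r values of 0.578, 0.756 and 0.727 there and did not pass. Plin4 (r = -0.14 at 6m and -0.07 at 24m) and Lpl (r = -0.18 and 0.539) did not pass at either age. Fabp4 had r = -0.09 at 6m and 0.622 at 24m, and Pparg r = 0.0032 and 0.405.

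Without 6m replicate 4, Cidec, Cfd and Retn were still past the threshold at 6m (r from 0.907 to 0.936, rho from 0.886 to 0.943, adjusted p up to 0.0350 by the exact permutation test), and Plin1 was not (r = 0.919, adjusted p = 0.0792). Without 24m replicate 4, Cidec (r = 0.915, adjusted p = 0.030) and Plin1 (r = 0.929, adjusted p = 0.0238) passed the exact test at 24m and Cfd did not (r = 0.848, adjusted p = 0.107), while r of Lpl was 0.051.

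At 28m the values of Adipoq fell into separate ranges, 3 mice at 2.08 CPM or less and 5 at 8.72 CPM or more, and no coefficient was computed. The order of the 8 mice from highest to lowest was replicate 7, 2, 5, 1, 3, 4, 8 and 6 for Adipoq and for Cfd. Cidec differed from that order only in that replicate 1 stood above replicate 5. Replicate 6 was lowest for Plin1, Cidec, Fabp4 and Retn as well, while for Plin4 the highest was replicate 4 and for Lpl the lowest was replicate 2.

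**Figure D4:**
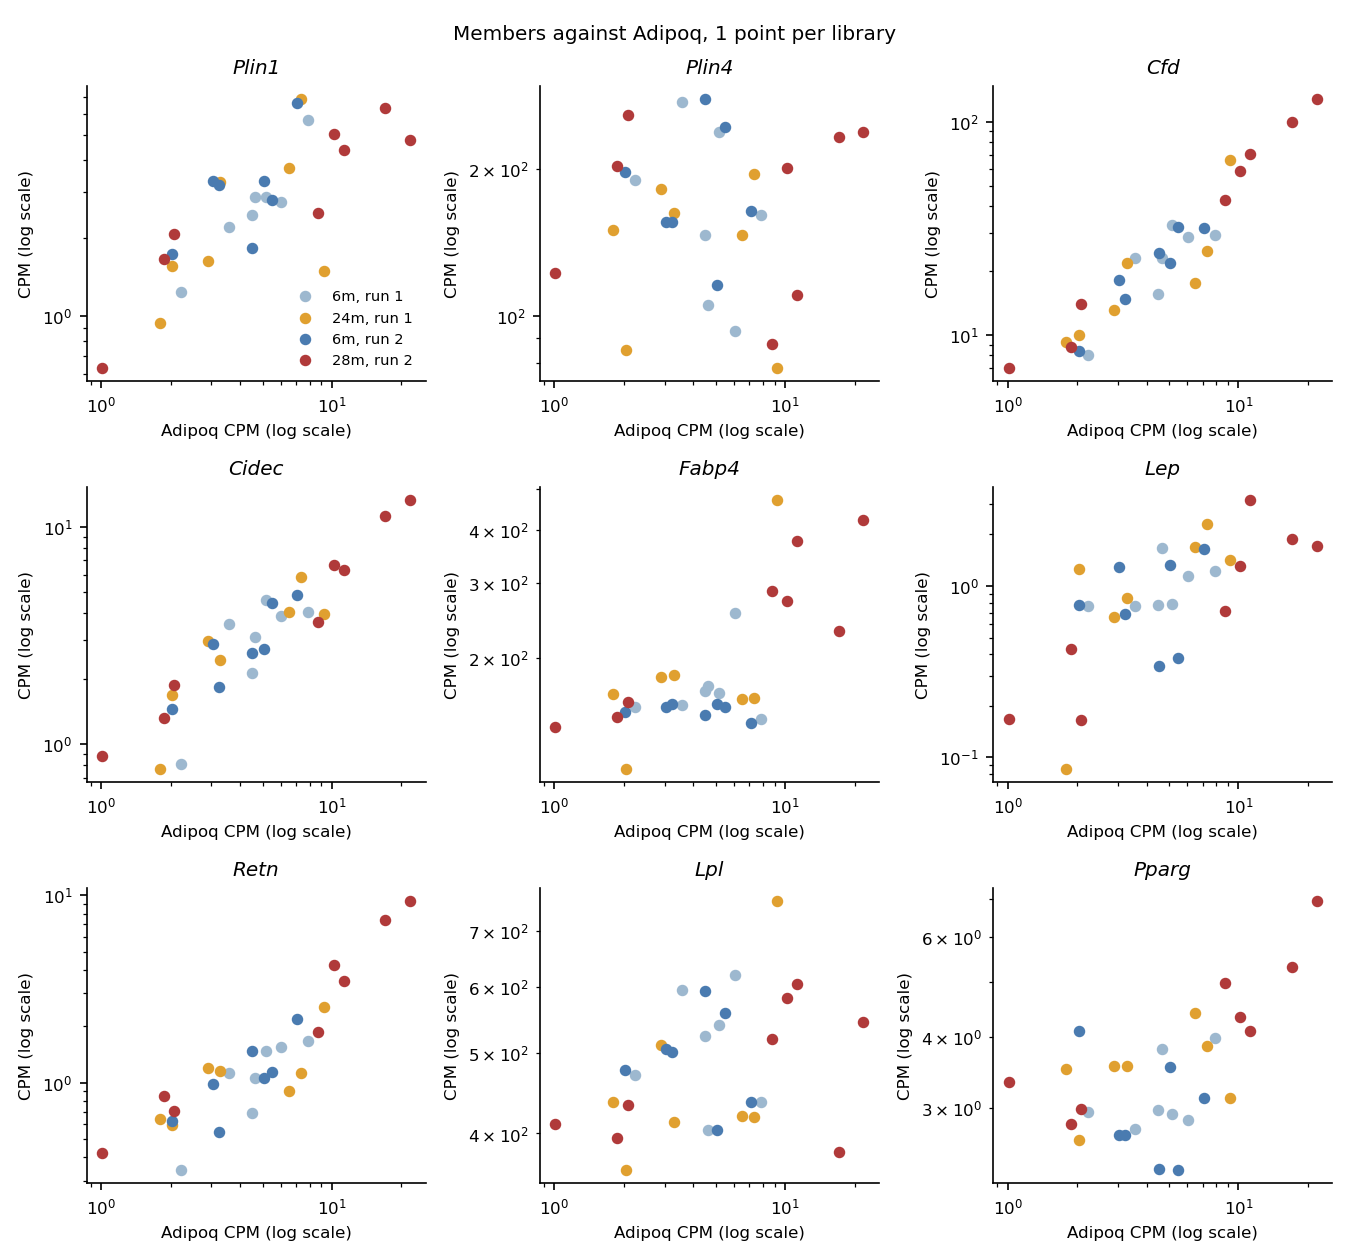
CPM of 9 genes (vertical axes) against CPM of Adipoq (horizontal axes), both on log scales, with 1 point per library coloured by age and run and 2 points for each 6m mouse. Cfd and Cidec rise with Adipoq over its whole range from 1.01 to 21.8 CPM, and Plin4 and Lpl show no such line.

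The ratio to Adipoq within each library, a measure added after the data had been seen, gave no difference with age that passed the test. For Cfd the log2 ratio was 2.54 ± 0.20 (SD, n = 8) at 28m and 2.29 ± 0.22 (n = 7) at 6m, and for Retn it was -1.44 ± 0.37 at 28m and lower at 6m. The differences of 0.25 (exact permutation p = 0.0387) and 0.51 (exact permutation p = 0.0287) had an adjusted p of 0.348 over 18 tests, and 6 of the 8 mice at 28m had a higher Retn ratio than all 6m mice. For Plin1 the ratio was lower at 28m by a difference of -0.64, with an exact permutation p of 0.0869.

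The genes most like Adipoq in pattern were found by Spearman's rho of log2 CPM, centred within each age, over the 22 mice, given as a description with no test. The 8 mice at 28m, with their separate ranges of Adipoq and wide spread, enter these values. Cfd (rho = 0.94) and Cidec (0.92) were the first of 12941 genes. They were followed by Slc7a10, an amino acid transporter of white adipocytes (0.91), Trf, which encodes transferrin (0.90), Ifi27l2a (0.90), Nnmt (0.89), Tmem45b (0.89), Cyp2f2 (0.89), Fam46a (0.89) and Hyi (0.88). Of these 10, only Hyi passed the test at 28m, where 47.3% of all genes did, with a log2fc of 0.76 ± 0.30 (adjusted p = 0.0427). Retn ranked 26, Lep 38 and Plin1 199, whereas Fabp4 ranked 769, Pparg 811, Lpl 3324 and Plin4 6604. The mice share their libraries across genes, and depth or RNA composition enters every one of these values.

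The repeated libraries of the 6m mice showed how far a level belonged to the RNA of a mouse. First and second libraries were correlated over 7 mice for 5 of the 10 genes, with r between 0.861 for Lpl and 0.926 for Cfd and adjusted p values up to 0.0286 by the exact permutation test, rho being 0.893 for both. The others were Plin1 (r = 0.921, rho = 0.786), Plin4 (r = 0.906, rho = 0.964) and Cidec (r = 0.865, rho = 0.929). This test was run on the 10 genes only, so whether 5 of 10 is usual among all genes is not known. Without the 2 mice farthest from the median, r was 0.477 for Cfd and 0.550 for Lpl but 0.998 for Plin4. By rho 4 genes passed, and Plin1 did not (adjusted p = 0.0800 by the same exact test). Pparg (r = 0.471) and Fabp4 (r = 0.502) showed the weakest relation by r. For Adipoq r was 0.726 (adjusted p = 0.0796 by the exact permutation test) and rho 0.607, the lowest rho of the 10, and r was -0.32 without the 2 farthest mice.

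Replicate 4 had the largest difference between its libraries for Adipoq, Plin4, Cfd, Fabp4 and Lpl, replicate 7 for Plin1, Cidec, Retn and Pparg, and replicate 3 for Lep. In the second library of replicate 4, Adipoq was lower by a log2 difference of -0.97, Fabp4 by -0.74 and Cfd by -0.67, while Plin4 was higher by 0.74. Without this mouse r was 0.970 for Fabp4, 0.994 for Cfd, 0.999 for Plin4, 0.985 for Lpl and 0.900 for Adipoq (rho = 0.943). Then 7 of the 10 genes passed the exact permutation test, Adipoq (adjusted p = 0.0238) and Fabp4 (adjusted p = 0.0139) in addition, again with no share over all genes to set beside it. In the test between the runs with the mouse as a block, none of the 10 genes passed over 12884 genes, and 0% of all genes did (edgeR, with Fabp4 of the 10 and 1052 of all genes at an unadjusted p under 0.05). Without replicate 4, Fabp4 was lower in the second run with a log2fc of -0.09 ± 0.02 (adjusted p = 0.0397), in a fit that called 103 genes higher and 83 lower of 12911. With the first-run 6m libraries in place of those of the second run, the log2fc of Fabp4 at 28m was 0.56 (adjusted p = 0.0851), that of Pparg 0.46 (adjusted p = 0.0799) and that of Retn 1.66 (adjusted p = 0.0496). That fit included the first-run library of replicate 4 and was not run without it.

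**Figure D5:**
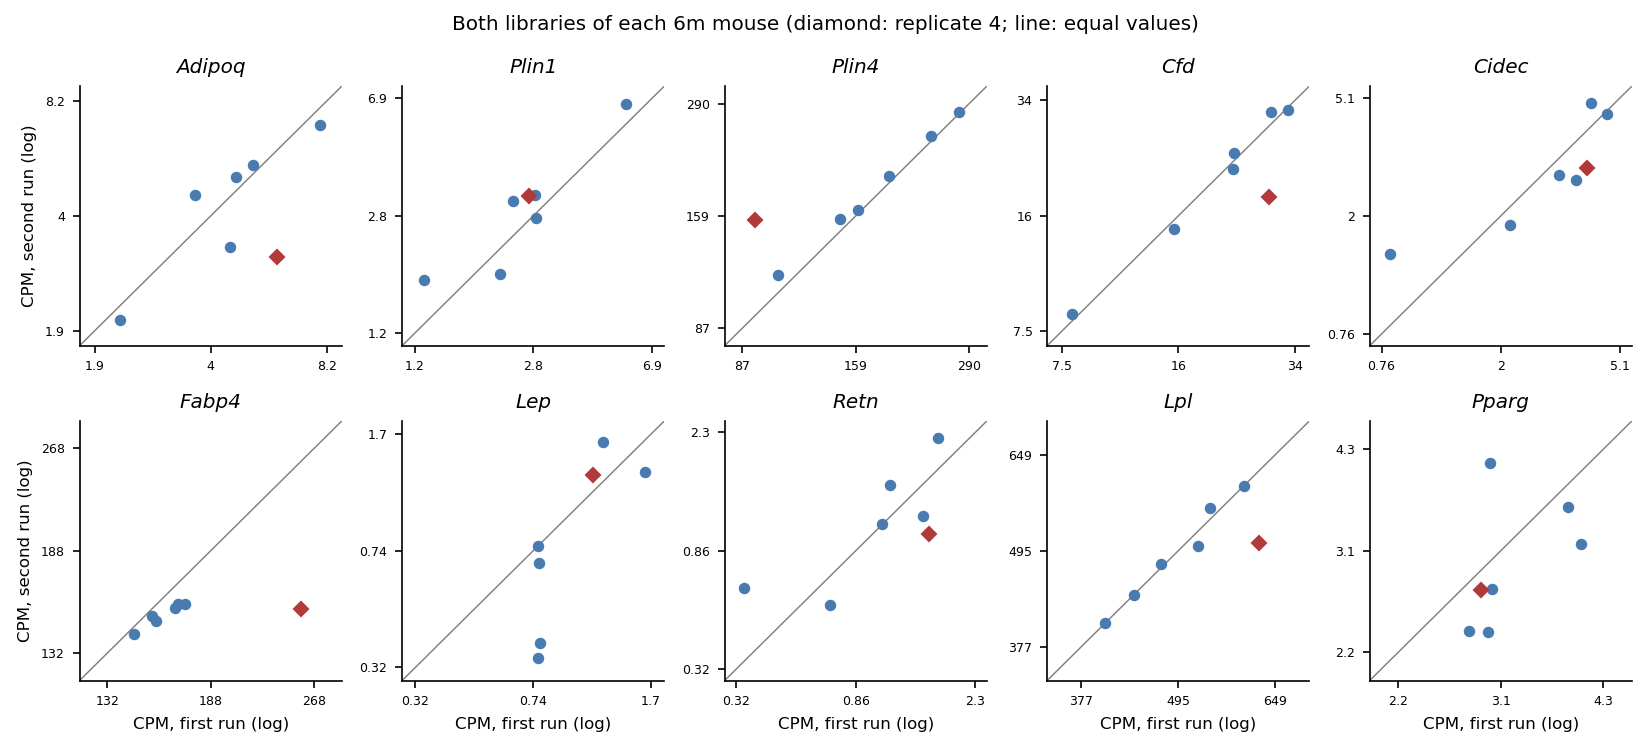
CPM in the second-run library (vertical axes) against CPM in the first-run library (horizontal axes) of each 6m mouse, on log scales, with the line of equal values and replicate 4 as a diamond. For Fabp4, Plin4, Cfd and Lpl the other 6 mice lie close to a line, with r from 0.970 to 0.999 without replicate 4.

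Other genes of adipocytes and of lipid handling were counted in lists, each beside a background at 28m of 24.3% of all genes called higher and 22.9% called lower. The counts that follow are descriptions, and a count near these shares says nothing particular about its list. Of 9 tested further markers of white adipocytes, 2 rose at 28m and none fell, a share close to that background, namely Sncg (log2fc 0.84 ± 0.19, adjusted p = 0.00256) and Thrsp (1.05 ± 0.29, adjusted p = 0.00923), which encodes a regulator of fat synthesis. Of the same list, Pnpla3 (-0.78 ± 0.39), Acvr1c (-0.62 ± 0.48) and Tusc5 (-0.02 ± 0.20) had negative estimates without passing, named after their values were seen. The other tested genes of it had positive ones. The median log2fc of that list was 0.50. Its summed level was between 22.3 and 39.9 CPM at 6m and between 26.1 and 74.0 CPM at 28m. Of 5 tested brown adipocyte markers, Cox8b, which striated muscle also expresses, rose (0.71 ± 0.21) and Prdm16 fell (-0.48 ± 0.12). The defining marker of that list, Ucp1, had at most 1 read in a library and was not tested.

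Lipid droplet proteins beyond the members gave 3 that rose and 1 that fell of 8. Cidea, a relative of Cidec, rose by 1.75 ± 0.36 (adjusted p = 0.00182) and Fitm1, which takes part in droplet formation in muscle, by 0.34 ± 0.12, while Fitm2 changed by -0.47 ± 0.09. In triglyceride breakdown, G0s2, the inhibitor of the lipase ATGL, rose by 1.35 ± 0.42 (adjusted p = 0.0157), and the glycerol channel gene Aqp7 fell with a log2fc of -0.63 ± 0.18, 1 each of 6. In triglyceride synthesis 3 of 8 fell and none rose, Lpin1 with a log2fc of -0.92 ± 0.20, Gpd1 of -0.55 ± 0.12 and Acsl1 of -0.47 ± 0.14.

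Partners of the members were measured as well. Gpihbp1, which anchors lipoprotein lipase on capillary endothelium, rose (0.80 ± 0.15, adjusted p = 0.00101), whereas the lipid receptors Vldlr (-0.66 ± 0.16) and Cd36 (-0.28 ± 0.09) fell, the only changes among 8 genes of that list. Of 5 genes of adiponectin and leptin reception, Adipor2 (-0.50 ± 0.14) and its adaptor gene Appl1 (-0.52 ± 0.12) fell. In the alternative complement pathway, in which factor D acts, C3 (-1.14 ± 0.23) and Masp1 (-0.87 ± 0.26), which activates factor D, fell and none of the 7 rose. Of 12 adipogenic transcription factors and related regulators, 7 fell and 2 rose, with Ebf2 at -1.41 ± 0.22, Rxra, the partner of PPARγ, at -0.83 ± 0.16 and Ppargc1a at -0.44 ± 0.08. The 2 that rose, named after their values were seen, were the C/EBP genes Cebpb (1.05 ± 0.21, adjusted p = 0.00139) and Cebpd (1.08 ± 0.36, adjusted p = 0.0230). The list medians were 0.026, -0.22, 0.12 and -0.51, against 0.0091 over all genes, and at 24m no gene of any of these lists passed.

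Among further cell type lists, 1 of 5 macrophage markers fell (Cd163, -0.79 ± 0.24) and 1 of 4 tendon markers rose (Scx, 1.07 ± 0.18). Others of these lists had estimates of the opposite sign without passing, namely Cd68 (1.08 ± 0.50) and Lyz2 (1.05 ± 0.51) among the macrophage markers and Fmod (-0.56 ± 0.37) and Thbs4 (-0.36 ± 0.19) among the tendon markers, named after their values were seen. The erythrocyte gene Alas2, the only one of its list tested, did not pass (log2fc -0.43 ± 0.34). Of 8 muscle fibre markers, 3 rose and 1 fell, among them Mb (0.94 ± 0.27), Tnnt3 (0.47 ± 0.12) and Myh4 (-0.48 ± 0.14). The summed endothelial, progenitor and adipocyte levels were all drawn from the same libraries, and their part in each other's values was not tested.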

How the data were processed

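Poly-A RNA of TA muscle was measured in 29 libraries of 22 mice. Single-end reads of 75 bases were mapped by the authors with STAR 2.5.4b on mm10, and the deposited values are raw read counts per gene from STAR GeneCounts, with the setting for strand not given in the sources used here. Groups came from the labels, and columns marked as a repeat are the second libraries of the same 6m mice, so the mouse pairs those libraries. Differences were fitted on the counts in R 4.3.3 by edgeR 4.0.16 (filterByExpr, TMM, quasi-likelihood test, Benjamini-Hochberg adjustment, threshold 0.05), separately for each run. CPM of single libraries was scaled over all 29 libraries, and log2 CPM used a prior count of 2. SE came from the quasi-likelihood test, and 95% intervals are 1.96 SE. Exact permutation tests, two-sided, were used for correlations and ratios, and an approximate permutation test of the deviations for spread. The correlation with Adipoq at 28m had been planned and was not computed, because its values fell into separate ranges. Transcript lengths and positions came from GENCODE M21 on GRCm38, as the longest principal transcript, with 20202 symbols matched directly, 1888 by synonym and 447 not matched. DESeq2 1.42.0 and limma-voom 3.58.1, other scalings and filters, removal of a length and GC trend, other 6m libraries and leaving out each mouse were the alternatives. The fits were tested on simulated data, where edgeR recovered 78% of genes with a log2fc of 1 and 97% with 2 for 28m against 6m over 12994 genes, and 68% and 91% for 24m against 6m over 13103 genes. False calls made up 5.91% and 7.02% of the calls there. For the difference between the age effects, over 13455 genes, 61% and 88% were recovered. The simulation changed only a small share of genes, drawn at random, with counts independent between genes. Its recovery is an average over genes and does not give the recovery for genes as variable as Adipoq, Cfd or Retn. The members, lists and tests were chosen with earlier results of these data known. Named genes were the 10 members, up to 3 genes of each list with the smallest p among those that passed at 28m or 24m, and the 10 genes most like Adipoq. No member fell under the low count filter, so the test planned for such genes was not run. Results for 1 further list are not reported here.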

Additional observations from a re-analysis of the deposited data

Results flagged for a closer look

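In 7 of 40 groups of single values, 1 library lay far from the others of its group. The groups share mice and libraries, so this count cannot be set against a chance rate. At 24m the library that stood apart was replicate 4 in each case, with 66.1 CPM of Cfd, 470 CPM of Fabp4, 2.52 CPM of Retn and 761 CPM of Lpl, against next values of 24.6, 183, 1.199 and 512 CPM. The same library had 1.49 CPM of Plin1 and 78.2 CPM of Plin4, which were not high in it. At 6m the first-run library of replicate 4 had 256 CPM of Fabp4, and the next value was 172 CPM, while its second library had 154 CPM. Plin1 in 6m replicate 6 stood apart in both libraries of that mouse, at 5.71 CPM in the first run and 6.65 CPM in the second, against next values of 2.89 and 3.33 CPM.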

How the results depend on the processing

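The 3 genes called at 28m became 2 with limma-voom (without Retn), 4 with DESeq2, its size factors, upper-quartile scaling or the dispersion of all libraries (with Cfd in addition), 0 with the length and GC trend removed and 1 with the 6m libraries of the other run, where 30.2% and 23% of all genes were called in place of 47.3%, and between 1 and 5 without single mice (1 without 6m replicate 1 or 4 or 28m replicate 2 or 7, and 5 without 28m replicate 4, 6 or 8). At 24m the count was 0 in all alternatives run. The count for the difference between the age effects was 0 to 1 without single mice, with 1 only without 24m replicate 4, and 0 with the mouse as a replicate block. Between the runs at 6m it was 0 to 1, with 1 only without 6m replicate 4, and 0 with no replicate block. The 5 genes with correlated 6m libraries became 0 to 7 without single mice (0 without 6m replicate 1 or 7, 1 without replicate 5, 2 without replicate 3 and 7 without replicate 4). The 6 relations with Adipoq became 0 by Spearman's rho and 0 to 6 without single mice (0 without 6m replicate 1 or 7 and 3 without 24m replicate 2 or 6). The spread differed for 2 gene comparisons when deviations were taken from the mean, against 0 from the median, which stayed 0 without single mice. Ratios to Adipoq gave 0 to 1, with 1 without 28m replicate 3. No estimate that had passed a test changed its sign. No paired analysis was possible between ages, because mice of different ages share no number. Depth limits the low members most, with 2 reads of Lep in the library with the fewest. No test of members under the low count filter was run.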
